A study of Homo sapiens with 6 samples.

Results

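The colony-stimulating factor genes CSF1, CSF2 and CSF3, the gene of the CSF1 receptor's other ligand, IL34, and the macrophage cytokine gene MIF were followed in U87 cells, an established human glioblastoma line, with and without silencing of Caspase-8. They were taken by gene symbol and make up 5 of the 23290 rows of the expression table. The rule itself uses no measured value. Both groups were U87 cells grown in serum-containing medium and infected with a retroviral vector. The control group carried a scramble construct (shCTR) and the other a construct that silences Caspase-8 (shC8), with 3 biological replicates in each group. Hairpin sequences, and whether the infected cells were pools or single clones, are not given in the sources used here. Total RNA was sequenced after ribosomal depletion and is given as FPKM (fragments per kilobase of transcript, scaled to library size), a unit that divides by transcript length and so lets the levels of different genes be set side by side. Wherever 3 values are listed for a group, they stand in the order of replicates 1, 2 and 3.

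CSF3 (granulocyte colony-stimulating factor, G-CSF) drives the production of neutrophils, CSF2 (GM-CSF) that of granulocytes and macrophages, and CSF1 (M-CSF) the survival and growth of macrophages and microglia. CSF1 and IL34 bind the same receptor kinase, CSF1R. MIF binds CD74 together with CD44 or a chemokine receptor, and unlike the other 4 is made and stored by most cell types. Gliomas recruit and keep large numbers of myeloid cells through such factors, and CSF2 and CSF3 are known as short-lived messages that inflammatory signals induce.

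The 5 genes lie on 5 chromosomes, all on the plus strand (GRCh38, GENCODE release 29). CSF1 spans chromosome 1 from 109910242 to 109930992, CSF2 chromosome 5 from 132073790 to 132076170, and CSF3 chromosome 17 from 40015361 to 40017813. IL34 spans chromosome 16 from 70579895 to 70660682 and MIF chromosome 22 from 23894004 to 23895227. All are annotated as protein-coding, and the FPKM values below are over their exons. MIF is overlapped by the antisense gene MIF-AS1 and by the protein-coding gene AP000350.4 on its own strand, neither of which has a row in the table. Reads shared with AP000350.4 cannot be told apart by strand. The library kit keeps strand, but whether the authors' quantification used it is not given in the sources used here, so reads of MIF-AS1 may be summed at MIF.

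The 3' UTRs of the 5 messages differ in the pentamer ATTTA, the core of the AU-rich elements by which many cytokine messages are marked for rapid decay. The densest stretches of 30 bases are shown for the 3 members that hold the pentamer, read from the GENCODE transcripts 5' to 3' on the sense strand with each ATTTA, overlapping copies included, in capitals.
CSF2: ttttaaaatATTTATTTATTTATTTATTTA
CSF3: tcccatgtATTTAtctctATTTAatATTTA
CSF1: tttatataaagtcATTTAaatatctATTTA
These stretches lie at bases 220 to 249, 16 to 45 and 2073 to 2102 of the CSF2, CSF3 and CSF1 3' UTRs, counted from the base after the stop codon of the transcript with the longest 3' UTR. The CSF2 3' UTR of 318 bases holds 8 copies of ATTTA. Only 0.119% of the 1682 UTRs of similar length (up to 20% shorter or 25% longer) held as many or more, and the nonamer TTATTTATT occurs 3 times. The CSF3 3' UTR holds 7 copies in 854 bases, and 2.46% of 2437 UTRs of similar length held as many or more. The CSF1 3' UTR holds 4 copies in 2154 bases, which is the median of the 2732 UTRs of similar length. Each of these sets of similar length counts the member itself. The IL34 and MIF 3' UTRs, of 495 and 120 bases, hold 0 copies. These matches describe the sequence, and message decay was not measured.

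RefSeq promoter windows (GRCh38.p14, from 250 bases before the first transcribed base to 50 bases from it onward) were at hand for CSF2 and MIF, the member with the widest spread within a group and the member with the highest level. Both are on the plus strand, with motif matches on either strand in capitals.
CSF2, chr5:132073539-132073838: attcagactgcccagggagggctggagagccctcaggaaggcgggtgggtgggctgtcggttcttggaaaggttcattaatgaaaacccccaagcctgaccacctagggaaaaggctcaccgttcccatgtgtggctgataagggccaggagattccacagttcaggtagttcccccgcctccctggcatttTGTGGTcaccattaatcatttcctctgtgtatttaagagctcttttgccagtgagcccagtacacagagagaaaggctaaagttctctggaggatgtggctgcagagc
MIF, chr22:23894133-23894432: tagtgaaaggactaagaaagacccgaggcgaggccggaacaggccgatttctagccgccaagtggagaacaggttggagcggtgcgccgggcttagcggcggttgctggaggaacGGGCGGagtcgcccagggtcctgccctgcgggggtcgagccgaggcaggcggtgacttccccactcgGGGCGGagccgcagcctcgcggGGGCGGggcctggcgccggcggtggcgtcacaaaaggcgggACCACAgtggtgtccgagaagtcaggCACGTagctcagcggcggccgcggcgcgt
RefSeq starts MIF 379 bases downstream of the GENCODE gene start given above, so the MIF window lies inside the GENCODE gene. The MIF window is 70.3% G or C and the CSF2 window 53.3%. The MIF window holds 3 copies of the GC box GGGCGG, starting 135, 68 and 46 bases before the RefSeq first transcribed base, a motif found in 45.0% of the 35116 RefSeq windows of this length. The CSF2 window holds 1 copy of TGTGGT, the core of the RUNX site, 58 bases before the start. TGTGGT, a motif added to the search after the CSF2 window had been read, occurs in 13.1% of all windows and once in the MIF window, on the other strand. The MIF window also holds ACGTG, the core of the hypoxia element, on the other strand, as do 21.4% of all windows. Neither window held TATAAA, the AP-1 word TGANTCA, the C/EBP word TTNNGNAA or the NF-kB consensus on either strand, which says only that these letters are not in these windows.

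CASP8, the silenced gene, stood at 13.4 to 15.1 FPKM in the shCTR libraries and at 4.39 to 4.46 FPKM in the shC8 libraries and fell by 1.51 on the log2(FPKM + 1) scale (limma, adjusted p = 0.000206). The libraries were alike in summed FPKM (489055 to 516634) and in genes above 0 (16326 to 17024). Read depth is unknown. The steps between the lowest values place the libraries between 1.0 and about 1.2 times the depth of shCTR 1. Pearson correlations of log2(FPKM + 1) were 0.984 to 0.988 within groups and 0.968 to 0.981 between them. The header's column numbers fall into 2 ranges, whose meaning is not given in the sources used here: shCTR 1, shCTR 3 and shC8 1 are in the lower range and the other 3 libraries in the upper. Library shCTR 3 stands apart from shCTR 1 and shCTR 2 for several of the genes below. CSF2, CSF3, the measures made from them, LIF, IL6, ZC3H12A, CEBPB and IL1B are given with and without it.

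Differences between groups were tested with limma on log2(FPKM + 1) over the 11598 genes that averaged 1 FPKM or more, and a gene was called at a Benjamini-Hochberg adjusted p below 0.05. Of these genes 12.1% were called, 7.14% higher and 4.94% lower in shC8. Of the 5 factor genes 4 were tested, each of which averaged above 1 FPKM in both groups. CSF1 and CSF3 were called lower, CSF2 and MIF were not called, and IL34 lay below the filter. Their values ran in both directions: CSF3 was 14.1-fold lower in shC8, CSF1 was 24.0% lower, and the mean of MIF was 39.4% higher with an adjusted p just above the threshold. The median change of the 4 tested members was -0.48 on the log2 scale, beside 0.04 over all genes tested.

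CSF3 was measured at 314, 235 and 51.3 FPKM in the controls and at 16.5, 17.3 and 8.84 FPKM in the silenced libraries. Every silenced library lay below every control, while shCTR 3 lay far below the other 2 controls. Lack of overlap alone was common, at 34.8% of all genes tested. The group means were 200.3 ± 135 and 14.2 ± 4.66 FPKM (SD, n = 3). On the log2(FPKM + 1) scale CSF3 fell by 3.43 (SE 0.63; adjusted p = 0.0162 in limma), the fall that ranked 2 of 11598, after that of the inflammatory cytokine gene IL1B. The exact two-sided permutation test gave p = 0.1, the smallest that 3 libraries against 3 can give. The change was -4.17, -3.69 and -2.41 between libraries of the same number. Among libraries of the lower column number range it was -2.88, and among those of the upper range -4.14. Without shCTR 3 the change was -4.22 and the call stood. Leaving out shCTR 2 or shC8 3 ended the call, with changes of -3.13 and -3.14 (limma adjusted p = 0.0558 and 0.0652), as did testing without the filter on low values (adjusted p = 0.116).

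CSF2 was the least steady of the 5 within its groups. Its values were 5.18, 6.495 and 0.490 FPKM in the controls and 1.71, 3.33 and 0.726 FPKM in the silenced libraries. The groups overlapped, since shCTR 3 was the lowest of all 6 libraries, 13.3 times below the highest control. The means were 4.06 ± 3.16 and 1.92 ± 1.31 FPKM (SD, n = 3), and the change of -0.59 in log2 units (SE 0.61, limma adjusted p = 0.555) was smaller than its error. The exact permutation p was 0.6. Without shCTR 3 the change was -1.32 and without shCTR 2 it was -0.16, without a call in either fit. Within the column number ranges it was -0.17 and -1.46. In pairs 1 and 2 CSF2 was lower in shC8 (-1.19 and -0.79), and in pair 3 it was higher (0.21).

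CSF1 was steady, at 17.0, 14.9 and 16.0 FPKM in the controls and at 12.2, 13.1 and 11.2 FPKM in the silenced libraries. The groups did not overlap, and no library stood apart. The means were 16.0 ± 1.04 and 12.1 ± 0.913 FPKM (SD, n = 3). CSF1 fell by 0.37 on the log2(FPKM + 1) scale (SE 0.08, limma adjusted p = 0.0274), with an exact permutation p of 0.1. The change was -0.45, -0.18 and -0.48 in pairs 1 to 3, and -0.41 and -0.28 within the lower and upper column number ranges. The size of the change held when a library was left out (-0.42 to -0.32), but the call held in only 1 of these 6 fits, the one without shC8 2. In the other 5, which left out shCTR 1, shCTR 2, shCTR 3, shC8 1 or shC8 3, the adjusted p rose to between 0.0502 and 0.0943, and without the filter on low values it was 0.0872.

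IL34 was barely detected. It was listed at 0.0179, 0.0443 and 0.0330 FPKM in the controls and at 0.0479, 0.136 and 0.203 FPKM in the silenced libraries. In FPKM the silenced libraries were all above the controls, shC8 1 only just. With the relative depth read from the steps between the lowest values, the controls were at 1.0, 2.98 and 2.03 times the shCTR 1 value. The silenced libraries were then at 2.9, 8.44 and 13.7 times that value, so shC8 1 no longer lay above shCTR 2. Its level ranked 14542 of 23290 rows, where CSF1 ranked 5363, and the depth behind so low a value is unknown. In the same fit without the filter on low values its change was 0.13 on the log2(FPKM + 1) scale (SE 0.05, limma adjusted p = 0.331), and the exact permutation p was 0.1. The change was 0.08 without shC8 3 and 0.18 without shC8 1.

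MIF was the most abundant of the 5, ranking 82 of 23290 rows. It was measured at 471, 600.0 and 493 FPKM in the controls and at 698, 841 and 641 FPKM in the silenced libraries. The groups did not overlap, with replicate 2 the highest of both. The means were 521 ± 69.0 and 727 ± 103 FPKM (SD, n = 3), a difference of 0.48 on the log2(FPKM + 1) scale (SE 0.13). The limma adjusted p of 0.0563 missed the threshold, and the exact permutation p was 0.1. With the replicate number as a block, which compares libraries of the same number, the SE was 0.06, the adjusted p was 0.00437 and MIF was called higher, in a fit that called 16.1% of all genes higher. The paired changes were 0.57, 0.49 and 0.38. The difference was 0.53 and 0.29 within the lower and upper column number ranges and 0.37 to 0.58 when 1 library was left out.

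**Figure D1:**
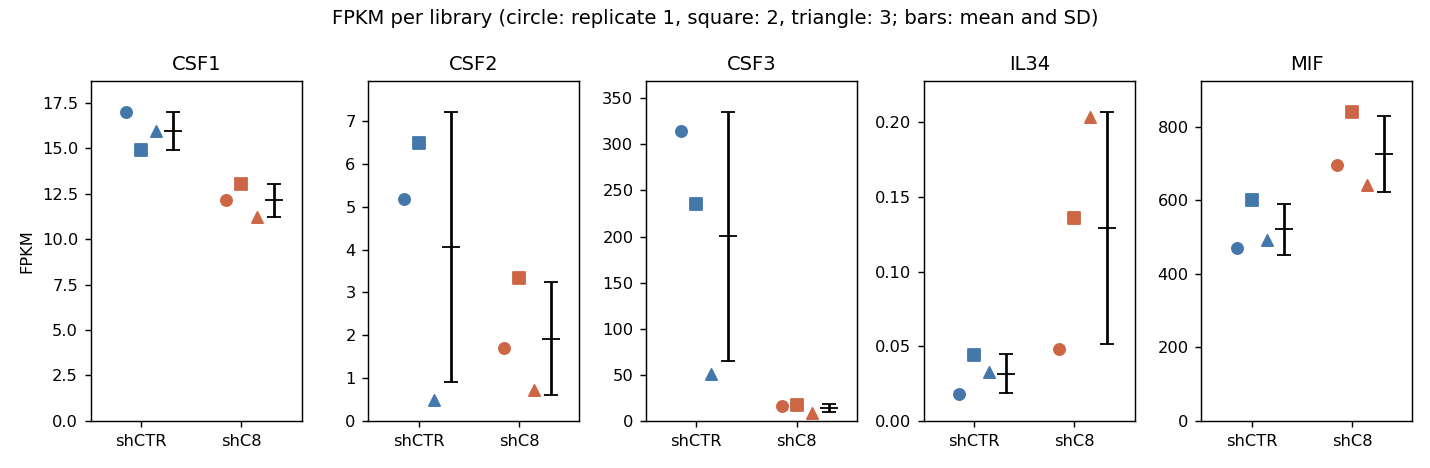
FPKM of CSF1, CSF2, CSF3, IL34 and MIF in the 3 shCTR libraries (blue) and the 3 shC8 libraries (orange), each panel with its own linear axis from 0. Marker shapes give the replicate number and bars the mean and SD. The shCTR 3 triangle lies far below the other controls for CSF2 (0.490 FPKM) and CSF3 (51.3 FPKM) but not for CSF1 or MIF.

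**Figure D2:**
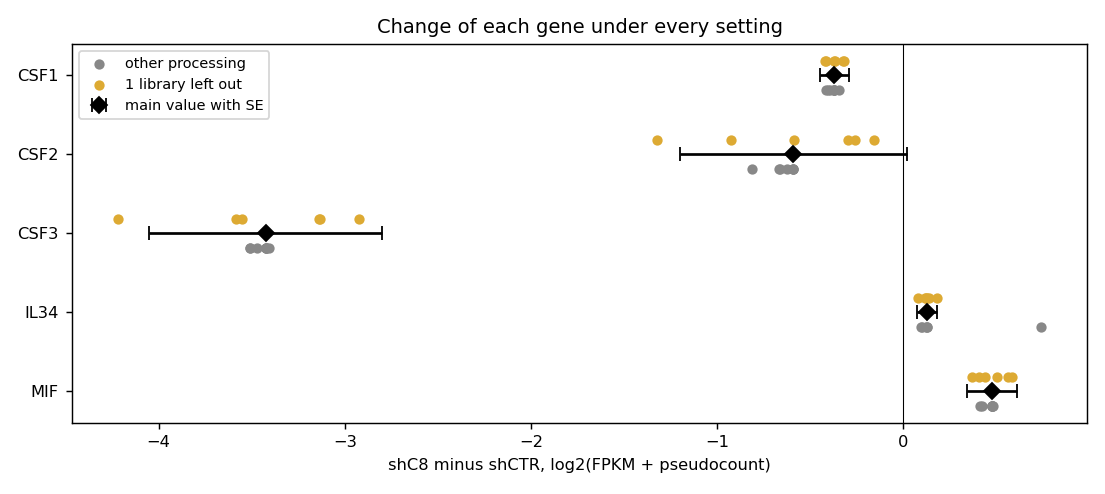
Change of each gene in shC8 against shCTR on the log2(FPKM + pseudocount) scale: the main value with its SE (black), values under other processing (grey) and values with 1 library left out (yellow). All points lie on the same side of 0 for each gene. CSF2 spreads from -1.32 to -0.16, and the grey IL34 point at 0.74 is the value with the smaller pseudocount of 0.1.

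The order of the levels by group mean was MIF, CSF3, CSF1, CSF2 and IL34 in both groups, but the distance between CSF3 and CSF1 was not the same. CSF3 stood at 18.5, 15.8 and 3.21 times the FPKM of CSF1 in the controls and at 1.36, 1.33 and 0.788 times in the silenced libraries. In 2 of the 3 silenced libraries these neighbours in the order were close, and in shC8 3 they changed places. The log2 ratio of CSF3 to CSF1 was 3.22 ± 1.39 in shCTR and 0.16 ± 0.41 in shC8 (SD, n = 3), a difference of -3.06 (exact permutation p = 0.1), and of -3.85 without shCTR 3.

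The summed FPKM of CSF1, CSF2, CSF3 and IL34, the members that act through haematopoietic growth factor receptors, was 336, 257 and 67.8 in the controls and 30.4, 33.8 and 21.0 in the silenced libraries. CSF3 made up 93.4, 91.6 and 75.6% of this sum in the controls and 54.2, 51.2 and 42.1% in the silenced libraries. CSF1 made up 5.05, 5.81 and 23.6% in the controls and 40.01, 38.6 and 53.5% in the silenced libraries. The mean CSF1 share was 11.5 ± 10.5% against 44.0 ± 8.20% (SD, n = 3), a difference of 32.5 percentage points (exact permutation p = 0.1), or 38.6 points without shCTR 3, while the level of CSF1 itself fell. The CSF1 share was larger in shC8 within a smaller sum. In bulk RNA, fewer cells making a factor and less of its message per cell cannot be told apart.

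**Figure D3:**
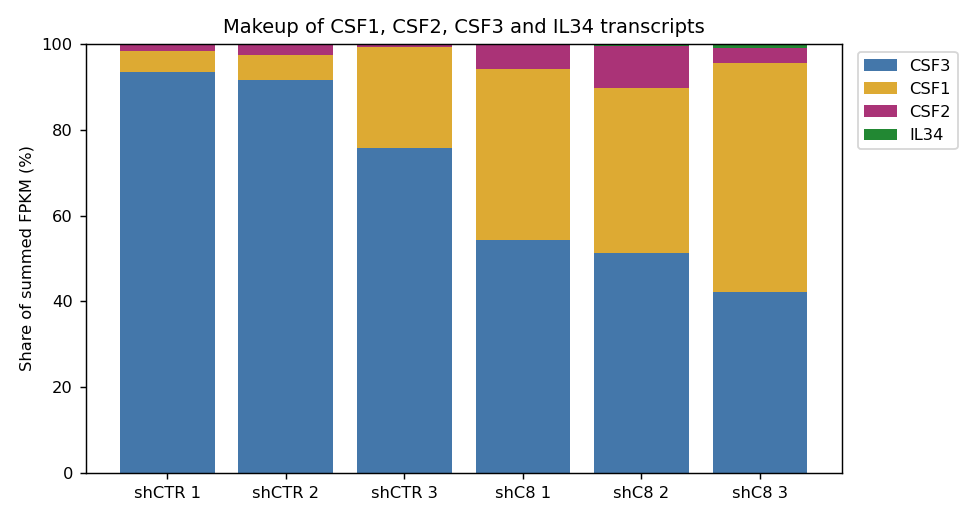
Share of CSF1, CSF2, CSF3 and IL34 in their summed FPKM, in percent, for each library. CSF3 takes 75.6 to 93.4% of the bar in the 3 shCTR libraries and 42.1 to 54.2% in the 3 shC8 libraries, and CSF1 takes 38.6 to 53.5% of the bar in shC8.

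Of the 11 genes for receptors of these factors 4 passed the filter, and the classical receptors of CSF2 and CSF3 were at or near 0. CSF3R, the G-CSF receptor, and CSF2RA, the ligand-binding chain of the GM-CSF receptor, were listed at 0 in all 6 libraries. CSF2RB, the chain shared by the GM-CSF, IL-3 and IL-5 receptors, reached at most 0.0125 FPKM. CSF1R was low but present in every library, at 0.908, 1.39 and 1.20 FPKM in the controls and at 1.52, 1.56 and 1.18 FPKM in the silenced libraries, with groups that overlapped (change 0.16, SE 0.12, limma adjusted p = 0.417). Of the other 2 receptors of IL34, the phosphatase gene PTPRZ1 was at 0.0418 FPKM or less and the proteoglycan gene SDC1 at 26.7 to 38.1 FPKM, without a call (change -0.14).

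Genes for receptors of MIF were more abundant. CD74, the surface chain that binds MIF, was among the abundant genes, at 194, 283 and 225 FPKM in the controls and at 240.2, 240.0 and 208 FPKM in the silenced libraries, and its change was -0.01 (SE 0.14, limma adjusted p = 0.961). CD44, its signalling partner and a hyaluronan receptor, was measured at 370.0, 363 and 366 FPKM in the controls and at 253, 259 and 293 FPKM in the silenced libraries. CD44 fell by 0.45 (log2, SE 0.08, limma adjusted p = 0.0131), and the call held in 6 of 6 fits without 1 library. Testing without the filter on low values ended the CD44 call. With the filter, CD44 was the 1 call among the 4 tested receptor genes, beside 12.1% of all genes tested. The chemokine receptor genes CXCR2 and CXCR4 were each above 0 in 1 library only, at no more than 0.0382 FPKM. ACKR3, listed under its older symbol CXCR7, was below the filter at 0.0823, 0.0844 and 0.0371 FPKM in the controls and at 0.810, 0.962 and 0.572 FPKM in the silenced libraries. The groups of CXCR7 lay far apart for so low a gene, and in the fit without the filter its change was 0.73 (SE 0.09, limma adjusted p = 0.0396, and 0.074 with the replicate block).

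**Figure D4:**
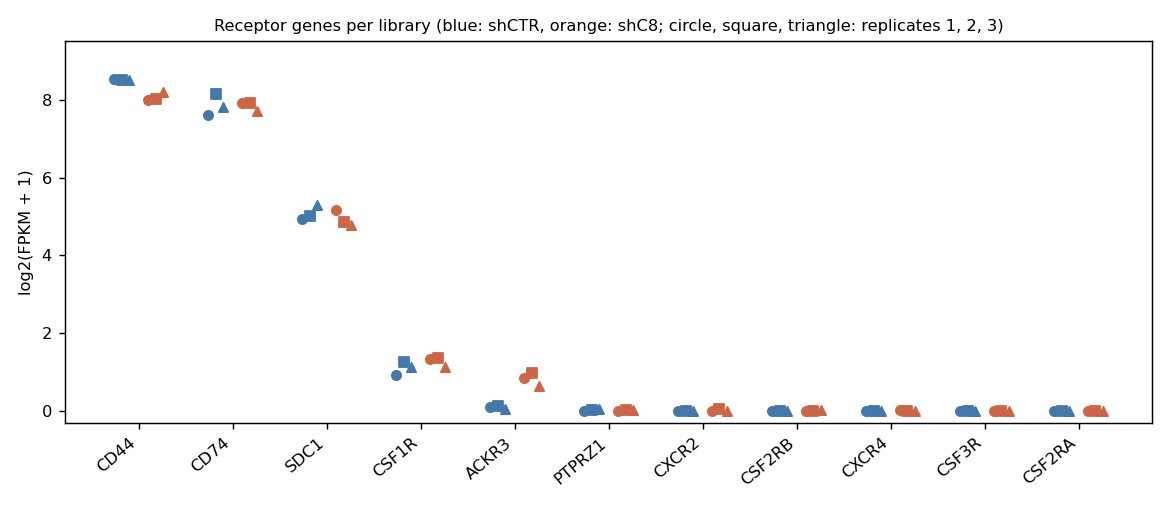
Level of the 11 receptor genes per library on the log2(FPKM + 1) scale, ordered by mean. CD44 and CD74 stand at the top, CSF1R lies near 1, and CSF2RA and CSF3R are at 0 in all 6 libraries. The gene drawn as ACKR3 is the row CXCR7 of the table.

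Behind these receptors, JAK kinases, STAT factors, SRC-family kinases and PI3-kinase carry the signal and SOCS proteins limit it. Of 20 such genes 15 were tested, 3 were higher, 1 was lower and 11 were not called. The share called was 26.7%, beside 12.1% of all genes tested, and the median change was 0.08, beside 0.04. STAT3, the main factor downstream of the G-CSF and IL-6 receptors, was at 19.1, 21.5 and 22.3 FPKM in the controls and at 29.8, 33.5 and 33.2 FPKM in the silenced libraries. Its rise of 0.59 (SE 0.08, limma adjusted p = 0.00627) held in 6 of 6 fits without 1 library. PIK3R1, the regulatory subunit of PI3-kinase, rose by 0.49 (limma adjusted p = 0.0464) and the SRC-family kinase gene LYN by 0.46 (adjusted p = 0.0322). SOCS1, an inhibitor of JAK kinases, fell by 0.51 (limma adjusted p = 0.0439), from 3.03 to 4.49 FPKM to 2.09 to 2.56 FPKM. These 3 calls held in fewer of the 6 fits without 1 library: PIK3R1 without shCTR 3 or shC8 1, LYN in 0 and SOCS1 without shCTR 3. Under quantile normalization PIK3R1 and LYN missed the threshold (adjusted p = 0.0641 and 0.0607), and under median-of-ratios scaling PIK3R1 did (0.0633). PTPN11 and SHC1, the most abundant genes of this list, were not called, with changes of -0.18 and 0.04. With the replicate block 6 genes of this list were called, 4 higher and 2 lower, where 26.6% of all genes tested were called. The added calls were PTPN11, lower (limma adjusted p = 0.0317), and the JAK kinase gene TYK2, higher (0.0235).

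Among 13 genes for related haematopoietic factors, 9 were tested and LIF alone was called (11.1%, beside 12.1% of all genes tested). LIF, a cytokine of the IL-6 family, was at 66.6, 78.2 and 34.0 FPKM in the controls and at 16.6, 14.3 and 12.5 FPKM in the silenced libraries. It fell by 1.89 (SE 0.28, limma adjusted p = 0.00847), a call that held in 6 of 6 fits without 1 library but not without the filter on low values. As with CSF3, shCTR 3 was the lowest control without reaching the silenced libraries, and without shCTR 3 the change of LIF was -2.25. IL6, chosen after its values were seen, stood at 28.3, 102 and 16.9 FPKM in the controls and at 3.803, 15.1 and 6.70 FPKM in the silenced libraries, a change of -2.17 that missed the threshold (limma adjusted p = 0.0748). Without shCTR 3 the change of IL6 was -2.70 (adjusted p = 0.0558), and with a term for the column number range IL6 passed (0.00799). With the replicate block, in which 10.6% of all genes tested were lower, 3 genes of this list were lower, LIF, IL6 and the epithelial cytokine gene TSLP, with adjusted p-values of 0.00222, 0.00548 and 0.023. The median change of the list was -0.11. IL3, the gene next to CSF2, was listed at 0 in every library.

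DDT, the close relative of MIF, was measured at 33.7, 39.98 and 31.8 FPKM in the controls and at 47.5, 44.7 and 35.6 FPKM in the silenced libraries, with overlapping groups (change 0.26, SE 0.13, limma adjusted p = 0.207). DDT has a nearly identical neighbour, DDTL, so reads may be split between them. MIF stood at 14.0, 15.01 and 15.5 times the FPKM of DDT in the controls and at 14.7, 18.8 and 18.03 times in the silenced libraries (exact permutation p = 0.3).

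The inducers of colony-stimulating factors include interleukin 1 and TNF, and their promoters are read by NF-kB, C/EBP, AP-1, NFAT and RUNX factors. Of 29 such genes 26 were tested, with 4 higher, 2 lower and 20 not called. The share called was 23.1%, beside 12.1% of all genes tested, and the median change was 0.01, beside 0.04. IL1B was at 434, 665 and 294 FPKM in the controls and at 23.1, 40.5 and 34.0 FPKM in the silenced libraries. It fell by 3.75 (SE 0.30, limma adjusted p = 0.00132), with a change of -4.04 without shCTR 3, and the call held in 6 of 6 fits without 1 library. FOSL1, an AP-1 subunit, fell by 0.67 (adjusted p = 0.0116), from 79.5 to 105 FPKM down to 53.3 to 56.0 FPKM, and held in all 6 as well.

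Of the receptor genes for these inducers, IL1R1 was not called (change -0.01) and the other two rose. IL1RAP, the co-receptor of interleukin 1, rose by 0.52 (limma adjusted p = 0.0174) and TNFRSF1A, the main TNF receptor gene, by 0.51 (adjusted p = 0.012), while TNF itself was at 0.109 FPKM or less. The IL1RAP call held only without shCTR 2 or shC8 1 among the fits that left out a library (limma adjusted p no higher than 0.0713 in the others). The TNFRSF1A call held in 5 of the 6 such fits and missed the threshold without shC8 3 (limma adjusted p = 0.0512). The AP-1 subunit genes JUNB and JUND rose by 0.35 and 0.31 (limma adjusted p = 0.0158 and 0.0354). JUNB missed the threshold without shCTR 2 or shC8 2 (up to 0.0605). JUND passed it in only 1 of the 6 fits without 1 library, the one without shCTR 1, and not under median-of-ratios scaling (adjusted p = 0.0647). HIF1A, the hypoxia factor and the most abundant factor gene of the list, had a change of -0.13 without a call. RUNX1, whose core word lies in the CSF2 window, was at 10.7 to 15.9 FPKM (change -0.19, limma adjusted p = 0.302). With the replicate block 10 genes of the list were called, 5 in each direction, where 26.6% of all genes tested were. CEBPB was among the added lower ones, at 94.4, 92.2 and 65.1 FPKM in the controls and at 60.6, 58.7 and 51.2 FPKM in the silenced libraries (change -0.54, adjusted p = 0.0529 without the block and 0.00584 with it). Without shCTR 3 the change of CEBPB was -0.71 and it was called (limma adjusted p = 0.013). That was the only 1 of the 6 fits without 1 library to call CEBPB (adjusted p up to 0.162 in the others).

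Proteins that bind AU-rich elements set how long messages such as CSF2 and CSF3 last. All 14 genes of this list were tested, and 1 was called (7.14%, beside 12.1% of all genes tested). PARN, a poly(A)-shortening enzyme, fell by 0.26 (limma adjusted p = 0.0271), from 33.3 to 34.3 FPKM to 27.6 to 28.8 FPKM. The PARN call held in 1 of the 6 fits without 1 library, the one without shC8 1 (adjusted p up to 0.0962 in the others). The list's median change was -0.02. ZFP36, the classical destabiliser of CSF2 messages, was at 6.15 to 7.10 FPKM in shCTR and at 6.33 to 6.94 FPKM in shC8, a change of -0.01 (SE 0.08, limma adjusted p = 0.952). The stabiliser ELAVL1 was likewise not called (change 0.07, SE 0.07). HNRNPD and CNOT1, the most abundant of the list, had changes of 0.01 and 0.08. ZC3H12A, an endonuclease gene induced by interleukin 1, was at 22.4, 15.1 and 5.11 FPKM in the controls and at 7.65, 7.82 and 5.04 FPKM in the silenced libraries, with shCTR 3 again far below the other controls (change -0.77, limma adjusted p = 0.288). Without shCTR 3 the change of ZC3H12A was -1.33 and it was called (adjusted p = 0.0226). That was the only 1 of the 6 fits without 1 library to call ZC3H12A (limma adjusted p up to 0.63 in the others). With the replicate block 3 genes of this list were called, KHSRP and PARN lower and RC3H2 higher, a share below the 26.6% of all genes called in that fit.

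The membrane form of CSF1 is shed by ADAM17 with its RHBDF partners, and MIF leaves the cell without a signal peptide, with ABCA1 named as a transporter. None of the 5 genes on this list was called in the limma fit. ADAM10, with the lowest adjusted p of the list, was at 36.4, 41.5 and 43.5 FPKM in the controls and at 46.3, 54.5 and 57.9 FPKM in the silenced libraries (change 0.38, limma adjusted p = 0.0536). With the replicate block ADAM10 was the 1 gene called (limma adjusted p = 0.00465), in a fit that called 16.1% of all genes tested higher. ADAM17 had a change of 0.16 (adjusted p = 0.18) and ABCA1 of -0.14 (adjusted p = 0.667).

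Across the libraries the members followed different patterns. CSF2 and CSF3 were low in shCTR 3 compared with shCTR 1 and 2, and so were LIF, IL6, ZC3H12A, CEBPB and IL1B. MIF was highest in replicate 2 of each group. As a description over 6 libraries that share the group difference, the genes whose log2(FPKM + 1) ran closely with CSF3 included PTP4A2 (r = 0.998), a phosphatase gene, and AMPD3 (0.996), an AMP deaminase gene. For CSF2 they were REEP4, IL7 and DNAJB5 (r from 0.982 to 0.997), for CSF1 PPP1R18, ERN1 and RPIA (0.986 to 0.989) and for MIF CDH4, PTN and SEPT8 (0.995 to 0.998). PTN, a secreted growth factor gene, was at 59.4, 77.4 and 65.9 FPKM in the controls and at 91.3, 109 and 81.2 FPKM in the silenced libraries, the same order of libraries as MIF in each group.

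**Figure D5:**
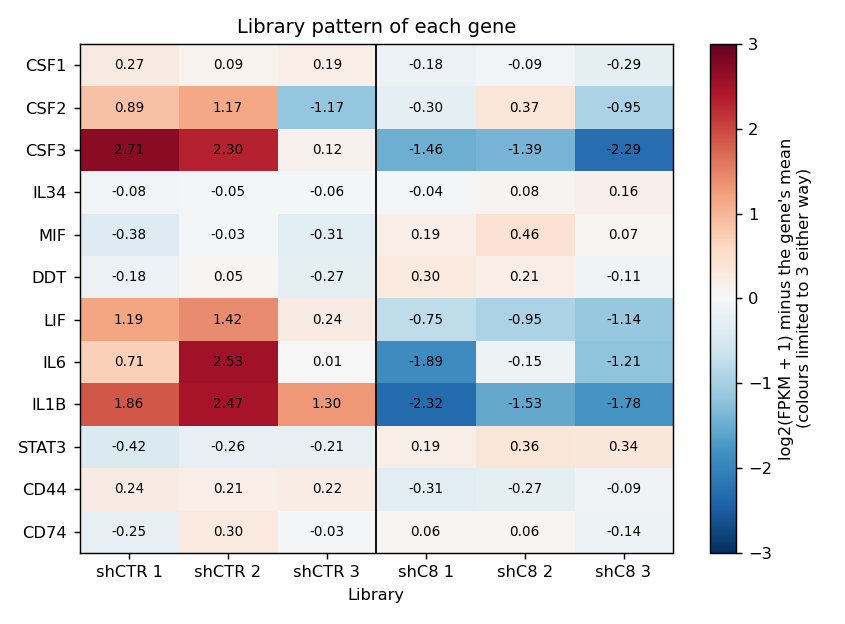
Log2(FPKM + 1) of each gene in each library minus its mean over the 6 libraries, with the value printed in each cell and colours limited to 3 either way. The black line parts shCTR from shC8. CSF2 (-1.17) lies below its mean in shCTR 3, and CSF3 (0.12), LIF (0.24) and IL6 (0.01) lie close to theirs there, unlike in shCTR 1 and 2.

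The genes beside the members in the genome were mostly not called. Of the nearest 2 genes on each side that have a row in the table, 20 in all, 11 were tested, 2 were higher in shC8 and 0 were lower. Over all genes tested, 7.14% were higher and 4.94% lower. P4HA2, a collagen prolyl hydroxylase gene downstream of CSF2, rose by 0.64 (limma adjusted p = 0.0201), and MTSS1L, downstream of IL34, rose by 0.37 (adjusted p = 0.0267). The P4HA2 call ended without shCTR 1, shCTR 3 or shC8 3, and the MTSS1L call without shCTR 1, shCTR 2, shC8 2 or shC8 3. Around CSF3, the proteasome gene PSMD3 and the Mediator gene MED24 had changes of 0.15 and 0.11 without a call, and around CSF1, AHCYL1 and FAM40A had 0.08 and 0.13. Around IL34, SF3B3 and VAC14 had 0.04 and -0.09, and around MIF, SLC2A11 and DDTL had 0.25 and -0.19, also without a call. SNORD124, beside CSF3, was above 0 only in shC8 3. GSTM5, EPS8L3, IL3, ACSL6, PDLIM4, GSDMA, SNORD111, DERL3 and GSTT2B lay below the filter.

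Markers of myeloid cells, the cells on which these factors act, were near 0 in every library. Of 15 such genes, 6 (AIF1, TYROBP, C1QA, C1QB, P2RY12 and TREM2) were listed at 0 throughout and only CD68 and FCER1G passed the filter, without a call in the limma fit. CD68, a lysosomal gene also used by other cells, was at 135 to 157 FPKM. Without CD68, the summed level of the list was 2.16 to 2.96 FPKM in shCTR and 0.966 to 2.31 FPKM in shC8, most of it FCER1G (change -0.69, adjusted p = 0.054, and 0.0347 with the replicate block). Of the glial markers, GFAP, S100B, SOX2 and OLIG2 were at 0.511 FPKM or less in every library, while VIM was at 3640 to 4713 FPKM. CHI3L1 was at 13.1 to 72.5 FPKM (change 0.69, limma adjusted p = 0.364, and called higher with the replicate block at 0.0263). NES, an intermediate filament gene of neural progenitors, rose by 0.60 (limma adjusted p = 0.0293), a call that ended without shCTR 1, shCTR 3, shC8 2 or shC8 3 (up to 0.102).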

How the data were processed

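RNA from 6 U87 libraries, 3 shCTR and 3 shC8, was measured by stranded total RNA sequencing, per the labels' protocols. The authors deposited FPKM values per gene. Per the submitters' processing notes the tools were TopHat, Cufflinks and Cuffdiff, on hg38, with no version stated, and the annotation is not given in the sources used here. Read counts were not used, and depth is unknown.

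Here FPKM were put on a log2 scale with a pseudocount of 1, which understates changes of low genes. Genes with a mean of 1 FPKM over the 6 libraries were tested with limma 3.58.1 (R 4.3.3), with a mean trend in the variance, and p-values were Benjamini-Hochberg adjusted over all 11598. Single measures had exact two-sided permutation tests over libraries (scipy 1.17.1). On simulated shC8 against shCTR data for the 11598 genes, 59% of changes of 0.5 (log2) and 90% of changes of 1 were recovered. Of the calls made there, 4.49% were false. Each size was given to 100 genes, and the noise was drawn independently for each library. The measured libraries deviated in pairs, as described next, so the simulation does not give the error rate of the measured fit.

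Libraries of the same number deviated together from their group means (r = 0.397, 0.267 and 0.291 for replicates 1, 2 and 3, over 11598 genes). The number was therefore taken as a pairing found in the data, though libraries of different numbers were not correlated for comparison. The pairing overlaps the column number ranges: replicate 1 is in the lower range in both groups, replicate 2 in the upper, and replicate 3 in different ranges. Where a test is given and the block changes the call, the blocked value stands beside it. Genes named for their likeness to a member are described without a test. The series text calls the libraries biological replicates.

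The members and gene lists were chosen with earlier results of these data known. The text names all members, from each list up to 4 called genes of largest change and the 2 most abundant, the nearest 2 neighbours on each side, and the 3 genes closest in pattern to each member, of which 1 is not reported here. IL6, TYK2, CEBPB, JUNB, JUND, RUNX1, IL1R1, ZC3H12A, ZFP36 and ELAVL1 were named after their values were seen. So were the genes of the receptor, release and marker lists beyond that rule. Promoter windows are from RefSeq (GRCh38.p14), which matched 2 of the 5 members, and 3' UTRs from GENCODE release 29. Alternatives were another pseudocount, filters, scalings, the block, a term for the column number range, no variance trend, and each library left out.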

Additional observations from a re-analysis of the deposited data

How the results depend on the processing

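The directions of CSF1, CSF2, CSF3, IL34 and MIF were the same under every alternative that gave a value. The calls were not all kept. Without the filter on low values, 492 genes were called in place of 1401, 0 members were lower, and CSF1 and CSF3 kept their changes (-0.37 and -3.43) with adjusted p-values of 0.0872 and 0.116. In that fit the lists had 1 call (signal relay), 0 (related factors, so LIF was not called) and 2 (inducers and transcription factors). The receptor list had 1 call, CXCR7 in place of CD44. The myeloid list had 1 call, SPI1, a gene at 0.02125 FPKM or less in shCTR and at 0 in shC8. With the replicate block, 3086 genes were called and 1 member was higher (MIF, 0.48). The lists then had 6 calls (signal relay), 3 (related factors), 10 (inducers and transcription factors), 3 (AU-rich decay factors), 1 (release of CSF1 and MIF) and 1 (myeloid markers). The block changed no other member's call. With a minimum mean of 5 FPKM, the signal relay list had 2 calls, the AU-rich decay list 2 and the release list 1. Quantile normalization left 2 calls in the signal relay list and gave 1 in the myeloid list, as did median-of-ratios scaling (1). A term for the column number range gave 2 calls among related factors. Leaving out 1 library at a time gave 477 to 1346 called genes, 0 to 2 members lower, changes of -0.42 to -0.32 for CSF1 and of -4.22 to -2.92 for CSF3, and 1 to 3 calls in the signal relay list, 1 to 2 among related factors, 3 to 6 among inducers and transcription factors, 0 to 2 in the AU-rich decay list and 0 to 1 in the release list. These fits keep the genes tested over 6 libraries and have fewer libraries, and for the other alternatives the cause was not tested. The share of higher genes among all calls was 59.1%, against 43.0% under median-of-ratios scaling and 49.2% under quantile normalization. The depth behind the values is unknown.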
